A study of Mus musculus with 50 samples.

Results

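Emb, Kcnab1, Prkcz and Amy1 are 4 of the 23880 genes measured in the gastrocnemius muscle of 50 ageing mice. They were chosen by 1 measured value, a higher level at 22 than at 8 months of age, the earliest point at which old mice were compared with young adults. Wild type male C57BL/6JRj mice were sampled at 8, 18, 22 and 24 months (n = 8 each) and at 26 and 28 months (n = 9 each), 1 polyA RNA library per mouse. All mice were singly caged and fed the AIN93M diet, to which the 8 and 18 months-old mice were acclimatised before sampling and which the older mice received from about 18 months onward. Mice with visible illness or tumours had been removed. That difference is given only as a description. In that contrast 5 of 12586 tested genes (0.0397% in either direction) passed a false discovery rate (FDR) of 0.01, all higher at 22 months. The fifth, Gm7609 (log2 fold change 2.05), was not followed here. The last gene inside the threshold was Kcnab1 (1.21) and the first outside was 2010300C02Rik (1.21), so the boundary separated similar sizes of change. The question was what happened next: a continued rise to 28 months, a plateau or a return.

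The 4 genes encode unrelated proteins. Embigin, the product of Emb, is a membrane glycoprotein of the immunoglobulin superfamily that escorts monocarboxylate transporters to the cell surface and promotes sprouting of motor nerve terminals in muscle. Kcnab1 encodes a cytoplasmic beta subunit that binds the alpha subunits of Kv1 potassium channels and speeds their inactivation. Prkcz encodes the atypical protein kinase C zeta, a partner of the PAR polarity proteins that does not depend on diacylglycerol. Amy1 encodes the salivary-type alpha-amylase, a secreted enzyme that cuts the alpha-glucosidic bonds of starch and glycogen.

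Libraries held between 13607229 and 21267375 counts (median 16521368.5 over the 50 mice). The labelled tissue fitted its defining transcripts: 8 of 8 muscle fibre markers (among them Acta1, Ckm and Myh4) were detected in every mouse, with a summed level of 113610 to 180361 TPM, a level scaled by transcript length and library total. The whole table changed late: 9 genes passed FDR 0.01 at 18 against 8 months, 14 at 24 against 18 months and 4480 at 28 against 18 months. At 26 against 24 months and at 28 against 26 months no gene passed with edgeR's quasi-likelihood test, although 2202 and 1609 genes had an unadjusted p under 0.05. DESeq2 called 14 and 0 genes there. The 8 and 22 months-old mice are not compared in any contrast tested below. They do enter the fit over all 50 mice, and so the filter, the scaling and the spread behind each standard error and FDR. The tests are thus not wholly independent of the choice of genes. These mice also enter the within-age relations, which remove the age means.

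Starts of the 4 genes, from RefSeq on GRCm38.p6, are shown because the genes were picked for a shared early difference. Kcnab1, Prkcz and Amy1 have several starts, and a further window of each was searched but is not printed. Each window holds 250 bases before and 50 bases after a start, and capitals mark the only match to the motifs searched.
Emb, chr13:117220323-117220622 (+): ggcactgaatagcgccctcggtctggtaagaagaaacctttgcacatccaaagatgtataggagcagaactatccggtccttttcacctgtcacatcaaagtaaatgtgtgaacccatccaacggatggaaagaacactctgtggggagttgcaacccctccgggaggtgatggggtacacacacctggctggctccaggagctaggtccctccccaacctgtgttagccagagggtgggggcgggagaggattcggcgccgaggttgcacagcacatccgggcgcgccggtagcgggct
Kcnab1, upstream start, chr3:64948962-64949261 (+): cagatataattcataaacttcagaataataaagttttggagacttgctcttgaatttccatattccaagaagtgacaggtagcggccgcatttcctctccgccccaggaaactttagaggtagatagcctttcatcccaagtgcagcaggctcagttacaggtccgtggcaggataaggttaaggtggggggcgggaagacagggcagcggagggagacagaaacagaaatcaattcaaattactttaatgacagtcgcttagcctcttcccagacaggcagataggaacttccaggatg
Kcnab1, second start, chr3:65108764-65109063 (+): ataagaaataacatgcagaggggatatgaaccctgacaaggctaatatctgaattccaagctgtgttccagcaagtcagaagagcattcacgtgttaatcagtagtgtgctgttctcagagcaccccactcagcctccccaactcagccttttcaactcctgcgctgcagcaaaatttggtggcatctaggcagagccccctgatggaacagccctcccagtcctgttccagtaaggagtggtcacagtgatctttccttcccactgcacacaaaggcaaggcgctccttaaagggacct
Prkcz, distal start, chr4:155361379-155361678 (-): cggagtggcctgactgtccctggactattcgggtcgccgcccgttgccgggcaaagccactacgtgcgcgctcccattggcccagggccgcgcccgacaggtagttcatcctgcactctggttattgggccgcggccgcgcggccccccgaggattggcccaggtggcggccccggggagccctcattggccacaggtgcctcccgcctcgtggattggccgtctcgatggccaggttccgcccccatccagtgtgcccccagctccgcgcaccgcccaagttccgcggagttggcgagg
Prkcz, internal start, chr4:155345740-155346039 (-): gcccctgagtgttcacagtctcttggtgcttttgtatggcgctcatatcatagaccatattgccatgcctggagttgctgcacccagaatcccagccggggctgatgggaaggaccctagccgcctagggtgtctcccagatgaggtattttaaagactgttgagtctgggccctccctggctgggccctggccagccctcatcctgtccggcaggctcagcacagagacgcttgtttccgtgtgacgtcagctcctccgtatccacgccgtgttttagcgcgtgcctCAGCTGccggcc
Amy1, chr3:113577701-113578000 (-): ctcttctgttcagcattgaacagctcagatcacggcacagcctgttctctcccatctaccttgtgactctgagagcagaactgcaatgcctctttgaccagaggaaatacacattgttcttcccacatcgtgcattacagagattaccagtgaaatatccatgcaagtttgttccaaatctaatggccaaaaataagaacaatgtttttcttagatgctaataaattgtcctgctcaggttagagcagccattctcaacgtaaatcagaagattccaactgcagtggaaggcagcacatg
The motifs were CAGCTG, the E-box of myogenic factors, the core of MEF2 sites, in which CTA and TAG stand 4 bases apart, and TGANTCA, the AP-1 site, each on both strands. Of the 32851 RefSeq windows of this length, 16.3% held the E-box, 3.69% the MEF2 core and 7.81% the AP-1 site. Among the 9 windows of the 4 genes, 1 held an E-box, at base 39 after the internal start of Prkcz, and none held a MEF2 core or an AP-1 site. None of these motifs was thus shared by the 4 genes within these windows.

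**Figure D1:**
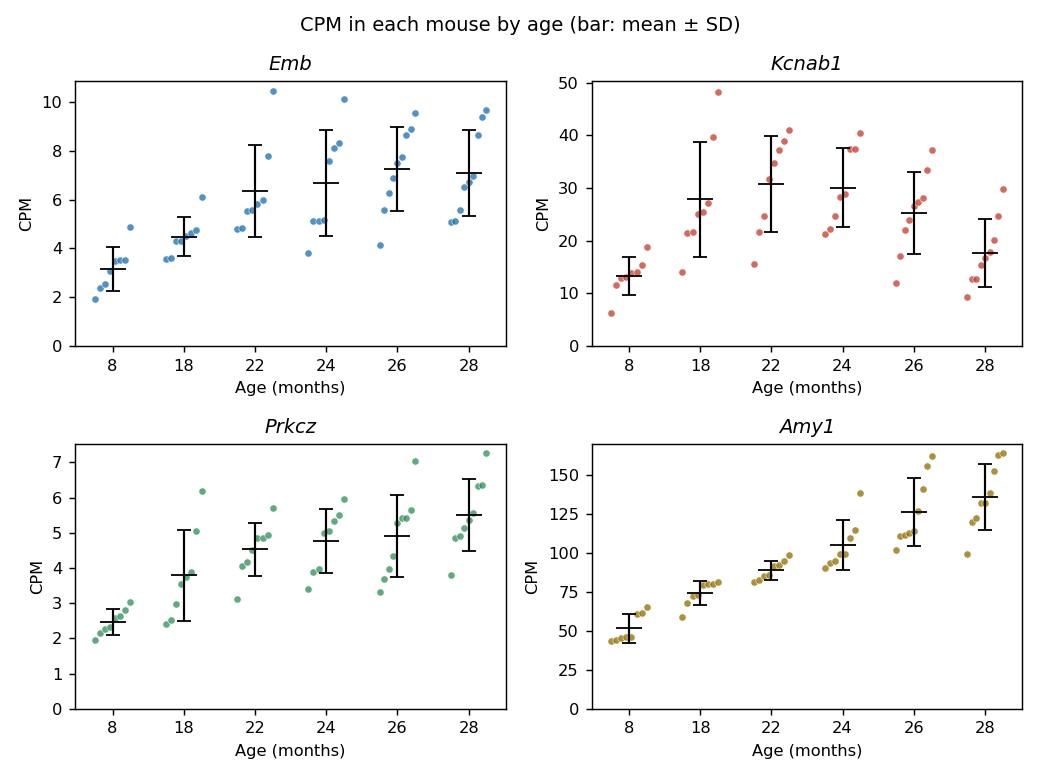
Scaled counts (CPM) of Emb, Kcnab1, Prkcz and Amy1 in each of 50 mice against age in months; each dot is a mouse, dots within an age are spread by value, and bars give mean ± SD. Amy1 climbs from a mean of 51.7 to 136 CPM, Emb goes from 6.35 to 7.08 CPM and Prkcz from 4.53 to 5.51 CPM between 22 and 28 months, and Kcnab1 returns from 30.7 CPM at 22 months to 17.7 CPM at 28 months.

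Amy1 kept rising. Its mean was higher at every successive age. The 8 months-old mice held 43.8 to 65.7 CPM (median 46.2), a unit in which each mouse's counts are divided by its library size after TMM scaling. The 18 months-old mice held 59.2 to 81.4 CPM (median 76.6) and the 22 months-old mice 81.7 to 98.6 CPM (median 88.8). The 22 months-old mice were all above the highest 18 months-old mouse, and so was every older mouse. At 24 months Amy1 ranged from 90.7 to 139 CPM (median 99.7), at 26 months from 102 to 162 CPM (median 114) and at 28 months from 99.8 to 164 CPM (median 133). From 24 months on the neighbouring ages overlapped.

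In the contrasts that leave out the ages behind the choice, Amy1 rose by 1.42-fold from 18 to 24 months (log2 fold change 0.50, SE 0.10, FDR = 0.00925), by 1.70-fold to 26 months (0.77, SE 0.10, FDR = 7.04e-06) and by 1.83-fold to 28 months (0.87, SE 0.10, FDR = 5.01e-08). These 3 contrasts share the 18 months-old mice. All 8, 9 and 9 older mice lay above all 8 mice of 18 months. At 28 against 24 months it rose by a further 1.30-fold (0.37, SE 0.10, FDR = 0.00586), with 9 of 9 mice above the 24-month median. The single steps were smaller than the test resolved: 0.27 from 24 to 26 months (95% interval 0.07 to 0.46, FDR = 0.144) and 0.11 from 26 to 28 months (-0.08 to 0.29, FDR = 0.626). With 1 mouse left out, FDR at 24 against 18 months lay between 0.00817 and 0.0401 and stayed under 0.01 only without 24-month replicates 3 or 5. At 28 against 24 months it lay between 0.00149 and 0.0206, under 0.01 without 24-month replicates 1, 6 or 8 or 28-month replicates 3, 4, 6 or 9, and it was 0.0140 with upper-quartile factors and 0.0317 when only those 2 ages were fitted. Diet history differed between the 18 months-old mice and all older mice, so diet and age cannot be told apart in the contrasts with 18 months.

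Amylase genes form a cluster on chromosome 3 whose members resemble each other, so the counts were examined for sharing. Amy1 (ENSMUSG00000074264, GRCm38 chr3:113555710-113606699, minus strand) took 99.9% of all amylase counts. The 5 pancreatic copies in the table, which are Amy2a1 to Amy2a5, together held 0 to 8 counts per mouse and at most 0.511% of a mouse's amylase counts. Amy2a2 and Amy2a3 had equal totals of 21 counts, and Amy2a1 had 0 in all mice, though its TPM reached 0.0408. Counts are whole numbers while shared reads are divided, so totals this low are uncertain. In GENCODE vM21 Amy1 has 3 coding transcripts of support level 1 to 3. Of their distinct 31-base words, 4.01% also occur in each of Amy2a2, Amy2a3, Amy2a4 and Amy2a5. The quantifier uses words of 31 bases by default. Summing all amylase genes into 1 row left every Amy1 call as it was.

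A second neighbour had more sequence in common. Rnpc3, which encodes a protein of the minor spliceosome, lies upstream on the same strand (chr3:113605067-113630149), and 1 annotated Amy1 transcript, Amy1-205, begins inside it. Of the 31-base words of Amy1-205, 71.4% occur in Rnpc3, against 0% for Amy1-201 and Amy1-202. Rnpc3 was less abundant, with a mean of 6.11 CPM (SD 0.825, n = 8) at 18 months and 11.5 CPM (SD 3.70, n = 9) at 28 months, and it rose too (28 against 18 months 0.91, SE 0.16, FDR = 1.19e-05). With the counts of Rnpc3 added, Amy1 at 24 against 18 months was 0.49 with FDR = 0.0104, just past the threshold. The mean transcript length implied by the ratio of count to TPM stayed within 1676 to 1686 bases at every age.

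Amylase is abundant in salivary gland and pancreas, and the listed markers, most of them pancreatic, were near 0 here. The salivary genes on the list were Prol1, Bpifa2 and Dcpp1. Of 13 listed exocrine genes 12 were in the table, and their summed level ran from 0 to 1.41 TPM over the 50 mice, while mean Amy1 was 56.1 TPM (SD 11.7) at 8 months and 154 TPM (SD 25.7) at 28 months. Prss2 was at 0 in all mice. Of other genes that break down alpha-glucans, at 28 against 18 months 1 of 7 tested was higher and 1 lower, where 19.1% of all genes were higher and 16.5% lower, and the median log2 fold change was -0.22, against 0.01 for all genes. Ganab, a glucosidase of the endoplasmic reticulum, rose (0.26, SE 0.07, FDR = 0.00322), and Pygb, the brain form of glycogen phosphorylase, fell by 0.43 (SE 0.12, FDR = 0.00331). Gaa, the lysosomal glucosidase, rose at 28 against 24 months (0.33, SE 0.09, FDR = 0.00986).

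No change of Emb past 24 months passed the test. As a description, its 22-month mean, which the choice of genes favours, was close to the later ones. The 8 months-old mice held 1.95 to 4.88 CPM (median 3.27), the 18 months-old mice 3.56 to 6.12 CPM (median 4.42) and the 22 months-old mice 4.82 to 10.4 CPM (median 5.69). The corresponding ranges were 3.83 to 10.1 CPM (median 6.38) at 24 months, 4.16 to 9.56 CPM (median 7.51) at 26 months and 5.09 to 9.66 CPM (median 6.72) at 28 months. The 4 older ages overlapped each other, while no 28 months-old mouse was as low as the highest 8 months-old mouse. Emb had 41 to 180 counts per mouse, and at its median of 89.5 counts the counting error alone is 10.6%.

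Against 18 months Emb rose by 1.62-fold at 26 months (log2 fold change 0.70, SE 0.18, FDR = 0.00550) and by 1.58-fold at 28 months (0.66, SE 0.18, FDR = 0.00248), with 8 and 9 of 9 mice above the 18-month median. At 24 months the difference was of similar size and did not pass (0.58, SE 0.19, FDR = 0.156). Beyond 24 months the log2 fold changes were 0.12 (26 against 24, 95% interval -0.23 to 0.47, FDR = 0.770), 0.08 (28 against 24, -0.26 to 0.43, FDR = 0.757) and -0.03 (28 against 26, -0.37 to 0.30, FDR = 0.940). The intervals leave room for a smaller rise or fall. The call at 26 against 18 months was lost, with FDR up to 0.0135, without 18-month replicates 2 or 8 or 26-month replicates 1, 2 or 3, and that at 28 against 18 months held without each mouse in turn.

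A further list held monocarboxylate transporters (Slc16a1, Slc16a3 and Slc16a7) and relatives of embigin (Bsg and Nptn). Which of them act with embigin in this muscle was not tested. At 28 against 18 months 0 of 5 tested were higher and 2 lower, with a median log2 fold change of -0.30. Of all genes 19.1% were higher and 16.5% lower. Nptn, which encodes the related glycoprotein neuroplastin, fell by 0.30 (SE 0.07, FDR = 0.000296), and Slc16a3, which encodes the lactate exporter MCT4, fell by 0.46 (SE 0.13, FDR = 0.00339). Slc16a1, which encodes MCT1, rose at 28 against 24 months (0.51, SE 0.15, FDR = 0.00950). Slc16a7, which encodes MCT2, had means of 1.503 to 2.16 CPM over the ages (-0.41 at 28 against 18 months, SE 0.19, FDR = 0.0731).

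The mean CPM of Prkcz was higher at each successive age, unlike its TPM given below, and no step past 24 months passed the test. As a description, 28 months differed from 22 months, an age behind the choice of genes, by 0.28 (95% interval -0.01 to 0.57). It ran from 1.961 to 3.04 CPM (median 2.45) at 8 months, from 2.41 to 6.20 CPM (median 3.65) at 18 months and from 3.13 to 5.72 CPM (median 4.68) at 22 months. No mouse of 22 months or older fell to the highest 8 months-old mouse, and the 18 months-old mice were the most scattered of all ages. The later ranges were 3.41 to 5.97 CPM (median 5.02) at 24 months, 3.33 to 7.03 CPM (median 5.27) at 26 months and 3.80 to 7.27 CPM (median 5.37) at 28 months. Prkcz is the member with the fewest counts (32 to 136 per mouse, 11.9% counting error at the median of 71).

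Prkcz rose by 1.44-fold from 18 to 28 months (log2 fold change 0.53, SE 0.15, FDR = 0.00375), with 9 of 9 mice above the 18-month median. It did not pass at 24 against 18 months (0.32, SE 0.16, FDR = 0.372) or at 26 against 18 months (0.36, SE 0.15, FDR = 0.0729). From 24 months on it differed by 0.04 at 26 months (95% interval -0.25 to 0.34, FDR = 0.918) and by 0.21 at 28 months (-0.09 to 0.50, FDR = 0.304), and the step from 26 to 28 months was 0.17 (-0.12 to 0.45, FDR = 0.614). The call at 28 against 18 months was lost with the replicate number as a block (FDR = 0.0112), when only those 2 ages were fitted (FDR = 0.0261), and, with FDR up to 0.0134, without 18-month replicates 4, 5 or 8 or 28-month replicate 9.

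Prkcz has transcripts of unlike length, so its count and its level per length can differ. Prkcz (ENSMUSG00000029053, GRCm38 chr4:155260129-155361361, minus strand) has a transcript of 2641 bases from the distal start, Prkcz-201, and one of 4083 bases from the internal start, Prkcz-202, whose windows are printed above, and 3 shorter ones of 586, 694 and 837 bases. The implied mean transcript length, on a scale set by 2040 genes with a single coding transcript, was 2519 bases (SD 177, n = 8) at 8 months, 2323 (SD 107) at 18 months, 2199 (SD 95.9) at 22 months, 2373 (SD 167) at 24 months, 2381 (SD 121) at 26 months and 2223 (SD 138, n = 9) at 28 months. The means at 22 and 28 months were lowest and the ages overlapped. All means lie below the length of both long transcripts. With 32 to 136 counts per mouse, noise in assigning reads to transcripts and a difference in transcript make-up cannot be told apart. The scale is approximate. Emb, with 1 annotated coding transcript of support level 1 to 3, of 2923 bases, had means of 3072 to 3083 bases. Kcnab1, with 1 such transcript of 3245 bases, had means of 2802 to 2833 bases, farther from its annotated length. The reason was not tested. Per length, mean Prkcz went from 1.78 TPM (SD 0.244) at 8 months to 3.81 TPM (SD 0.700) at 22 months. It was no higher at 24 months (3.70 TPM, SD 0.681) or 26 months (3.74 TPM, SD 0.830) and reached 4.70 TPM (SD 0.812) at 28 months. The log2 fold change at 28 against 8 months was 1.15 with edgeR on counts, 1.03 with limma on log2(TPM + 1) and 1.35 with limma on log2(TPM + 0.1).

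**Figure D2:**
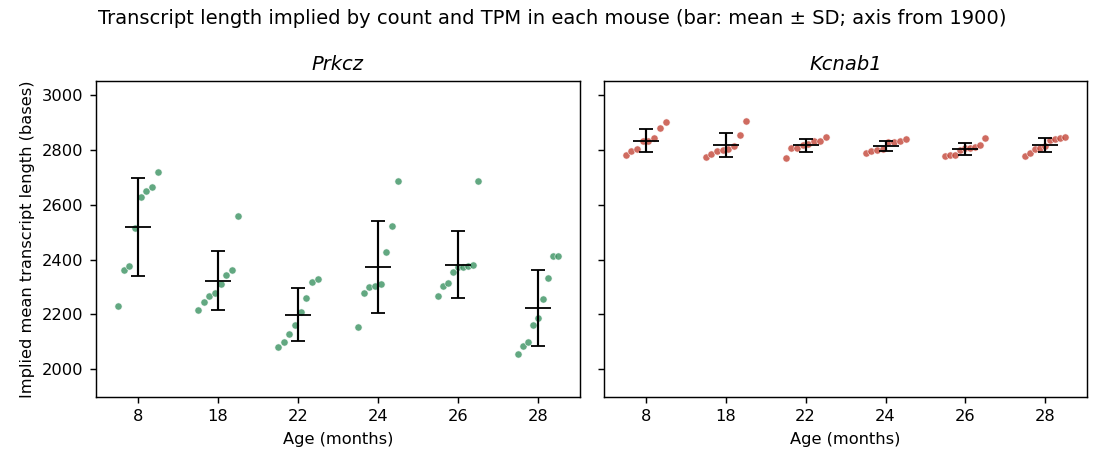
Mean transcript length in bases implied by the ratio of deposited count to TPM, for Prkcz and Kcnab1, in each of 50 mice against age in months, with dots for mice and bars for mean ± SD; the vertical axis does not start at 0. Prkcz has means of 2199 bases at 22 months and 2519 bases at 8 months, and Kcnab1 between means of 2802 and 2833 bases.

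Of the genes of the atypical kinase's polarity complex, 1 of 10 tested was higher at 28 against 18 months and none lower, against the same 19.1% and 16.5% of all genes. That gene was Llgl2, a substrate of the complex (0.96, SE 0.15, FDR = 4.82e-06), which also rose at 28 against 24 months (0.55, SE 0.15, FDR = 0.00733). Sqstm1, which encodes the autophagy adaptor p62 that binds atypical kinases, rose at 28 against 24 months (0.52, SE 0.13, FDR = 0.00491). Prkci, the other atypical kinase, did not pass (0.12 at 28 against 18 months, SE 0.11, FDR = 0.339). Among the 7 conventional and diacylglycerol-dependent isoforms, 3 were higher and 1 lower at 28 against 18 months, where 19.1% of all genes were higher and 16.5% lower. Prkce (0.40, SE 0.10, FDR = 0.000682), Prkch (0.79, SE 0.13, FDR = 1.10e-05) and Prkcq (0.39, SE 0.08, FDR = 0.000165) rose and Prkcd fell by 0.53 (SE 0.16, FDR = 0.00556). Prkcq encodes the theta isoform, prominent in skeletal muscle. Prkch also rose at 28 against 24 months (0.48, SE 0.13, FDR = 0.00813).

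Kcnab1 turned back. Its mean was already high at 18 months, similar at 22 and 24 months and lower from there. The 8 months-old mice held 6.25 to 18.8 CPM (median 13.6), the 18 months-old mice 14.1 to 48.2 CPM (median 25.3) and the 22 months-old mice 15.6 to 41.1 CPM (median 33.2). At 24 months the range was 21.3 to 40.5 CPM (median 28.6), at 26 months 12.02 to 37.2 CPM (median 26.7) and at 28 months 9.23 to 29.9 CPM (median 16.8). The 24 months-old mice were all above the highest 8 months-old mouse, whereas of the 28 months-old mice only 3 of 9 were. At 28 months 7 of 9 mice lay below the lowest 24 months-old mouse.

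Kcnab1 fell by 41.2% from 24 to 28 months (log2 fold change -0.77, SE 0.22, 95% interval -1.20 to -0.34, FDR = 0.00950). The difference between 28 and 18 months was of similar size and did not pass (-0.66, SE 0.22, FDR = 0.0115). The earlier contrasts were small, with 0.11 at 24 against 18 months (95% interval -0.33 to 0.55, FDR = 0.865) and -0.14 at 26 against 18 months (-0.57 to 0.28, FDR = 0.658). The estimates of both late steps were negative and neither passed. They were -0.25 from 24 to 26 months (95% interval -0.68 to 0.17, FDR = 0.575) and -0.52 from 26 to 28 months (-0.93 to -0.10, FDR = 0.348). How the fall divides between these steps was thus not resolved. As a description, the level at 28 months was 1.33-fold that at 8 months (0.41, SE 0.22), down from 2.32-fold at 22 months (1.21, SE 0.23). Both values lie close to the threshold. FDR at 28 against 24 months went up to 0.0285 and stayed under 0.01 only without 24-month replicates 1, 2 or 8 or 28-month replicates 3, 6 or 9, and it was 0.0138 without the filter on low counts, 0.0134 and 0.0145 with limma on log2(TPM + 1) and log2(TPM + 0.1) and 0.0265 when only the 2 ages were fitted. Conversely, 28 against 18 months passed with DESeq2 (FDR = 0.00751), edgeR's likelihood ratio test (0.00765) and upper-quartile factors (0.00828), and without 18-month replicates 1, 5 or 7 or 28-month replicates 6 or 9 (lowest FDR = 0.00270). The direction was down in all of them.

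A transcript from the same locus followed the same course. Kcnab1 (ENSMUSG00000027827) lies on GRCm38 chr3:65109384-65378223, plus strand. Gm38048 (ENSMUSG00000102437), annotated as a sense-overlapping RNA, begins far upstream at chr3:64949223-65223701 on the same strand, at the upstream RefSeq start of Kcnab1 printed above. Its mean was 0.990 CPM (SD 0.464, n = 8) at 8 months, 2.15 (SD 0.802) at 18 months, 2.49 (SD 1.05) at 22 months, 2.39 (SD 0.633) at 24 months, 1.94 (SD 0.715, n = 9) at 26 months and 1.44 (SD 0.790, n = 9) at 28 months. Over the 50 mice it was the gene most like Kcnab1 (Pearson r 0.90), and over deviations from the age means too (0.83). In GENCODE vM21 it has no 31-base word in common with the 1 coding Kcnab1 transcript of support level 1 to 3, which begins at chr3:65109384. Kcnab1 has 6 annotated transcripts, and the others were not compared. The release behind the deposited counts may differ, and whether the genes share reads was not tested. It did not pass at 28 against 24 months (-0.74, SE 0.29, FDR = 0.0559), and with its counts added to Kcnab1 the change was -0.76 with FDR = 0.0102.

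Kcnab1 binds alpha subunits of the Kv1 family. Of 8 other Kv1 channel genes measured, which include the beta subunits Kcnab2 and Kcnab3, 5 were tested, Kcnab2 among them. At 28 against 24 months none of the 5 passed in either direction, where 7.83% of all genes were higher and 3.04% lower. Their median log2 fold change was 0.34, against 0.01 for all genes. Kcna7, an alpha subunit typical of skeletal muscle, fell by 0.37 at 28 against 18 months (SE 0.12, FDR = 0.00992). The sister subunit Kcnab2 had means of 0.924 to 1.24 CPM (-0.01 at 28 against 18 months, SE 0.24, FDR = 0.984), and Kcnab3 was too low to test. Kcna3 and Kcna5 were not analysed here.

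**Figure D3:**
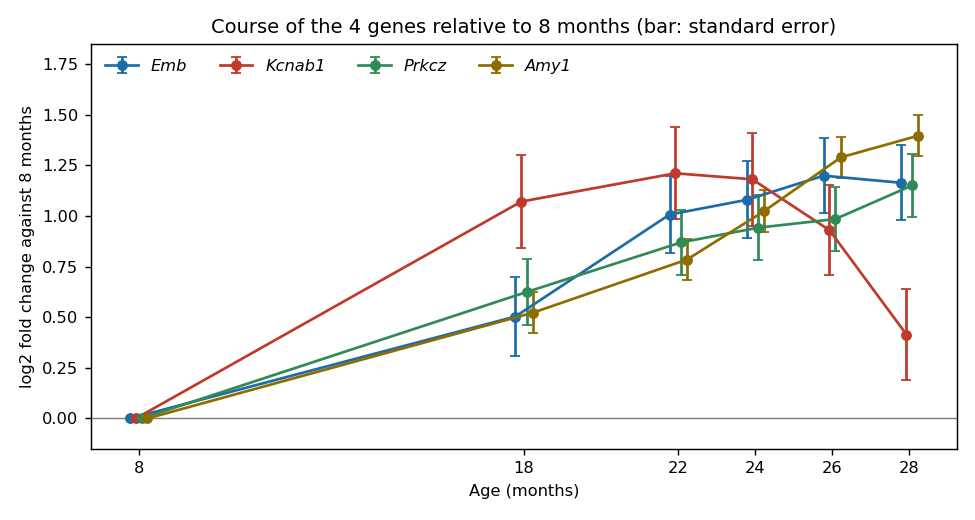
Log2 fold change against 8 months for each gene at 6 ages in months, from 1 edgeR fit over 50 mice, with bars for the standard error; it is a description, since the 8 months-old mice helped to choose the genes. Amy1 reaches 1.40 at 28 months, Emb 1.16 and Prkcz 1.15, whereas Kcnab1 peaks at 1.21 at 22 months and stands at 0.41 at 28 months.

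Set side by side, the courses were as follows, as a description with no test between genes. At 18 months the means were already above those of 8 months, by log2 fold changes of 0.50 (Emb), 1.07 (Kcnab1), 0.63 (Prkcz) and 0.52 (Amy1). The change from 22 to 24 months was 0.07, -0.03, 0.07 and 0.24, and that from 22 to 28 months 0.16, -0.80, 0.28 and 0.61, in the same order. In the tests, 3 of 4 rose at 28 against 18 months, where 35.6% of all genes passed, 19.1% higher and 16.5% lower. At 26 against 18 months 2 of 4 rose, where 10.1% of all genes passed, 5.39% higher and 4.68% lower, and at 24 against 18 months 1 of 4, where 0.111% passed, 0.0715% higher and 0.0397% lower. At 28 against 24 months 1 of 4 rose and 1 of 4 fell, where 10.9% of all genes passed, 7.83% higher and 3.04% lower. At 26 against 24 and at 28 against 26 months none of the 4 passed, like every other gene.

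**Figure D4:**
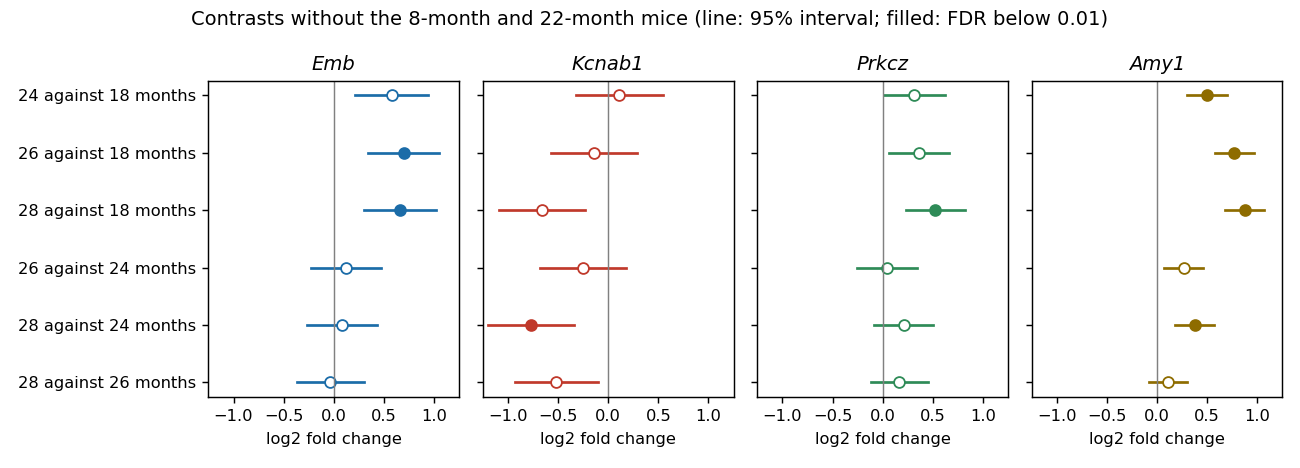
Log2 fold change, older minus younger, of each gene in the 6 contrasts that compare neither 8 nor 22 months-old mice, from the fit over all ages. Points are estimates, lines 95% intervals, and filled points passed FDR 0.01. The contrasts against 18 months are positive for Emb, Prkcz and Amy1, and Kcnab1 is at -0.77 at 28 against 24 months.

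Ordered by level, the neighbouring ages of Amy1 differed by 2.65 and 2.12 pooled SDs at the first steps (8 to 18 and 18 to 22 months) and by 0.454 at the last (26 to 28 months). For Emb the steps were 1.53 (8 to 18 months) and 1.28 (18 to 22 months). The later steps, on to 24, 28 and 26 months in turn, were at most 0.204 each. For Prkcz they were 1.40 and 0.694, and later steps were at most 0.558. For Kcnab1 the order from low to high was 8, 28, 26, 18, 24 and 22 months, with steps of 0.849 from 8 to 28 months and 1.07 from 28 to 26 months and of at most 0.272 above that. Only steps above 1 exceeded the spread between mice. Per length, Amy1 was the most abundant at 28 months (154 TPM), followed by Kcnab1 (11.8 TPM, SD 4.08), while Prkcz (4.70 TPM, SD 0.812) and Emb (4.40 TPM, SD 1.24) did not differ beyond their spread.

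Within an age no pair of the 4 genes passed a test of moving together. Over the 50 deviations from the age means of log2(CPM + 1), Pearson's r for the 6 pairs ran from -0.32 to 0.17, and no adjusted p of the within-age permutation test (100000 permutations, two-sided, 10 relations) was under 0.05. The strongest was Kcnab1 with Amy1 (r = -0.32, p = 0.0323, adjusted p = 0.197, Spearman's rho -0.25, p = 0.0912, adjusted p = 0.304), negative in 6 of 6 ages, with r = -0.28 without the 2 mice farthest from the median of Kcnab1. The other relations used the mean of 12 denervation response genes. Among them are Chrna1 and Myog, transcripts that a muscle fibre makes when its nerve is lost, but not every listed gene, for example Dach2, need rise then. Against this mean r was 0.32 for Amy1 (p = 0.0393, adjusted p = 0.197, rho 0.30, p = 0.0390, adjusted p = 0.304), 0.28 for Prkcz (adjusted p = 0.197), 0.24 for Emb (adjusted p = 0.287) and -0.11 for Kcnab1 (adjusted p = 0.667). The relation of Amy1 passed in log2(TPM + 1) (r = 0.44, adjusted p = 0.0378).

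Pearson's r of log2(CPM + 1) with each of the 12585 other tested genes gave the transcripts most like each member, given as a description because mice share age and scaling. Over the 50 mice these were Ccl8 (0.80), C6 (0.73) and Sh2d4a (0.71) for Emb, Ccl8 (0.75), Chrna1 (0.74) and Amy1 (0.74) for Prkcz, Gstm2 (0.86), Ptp4a3 (0.84) and Eloa (0.84) for Amy1, and after Gm38048 Tdrkh (0.69) and Galnt17 (0.69) for Kcnab1. Ccl8, a chemokine, thus headed the lists of both Emb and Prkcz. With the age means removed the leading genes were, apart from Gm38048, Arf4 (0.63), Vta1 (0.61) and Tmsb10 (0.59) for Emb, Htra4 (0.74) and Gdap1 (0.68) for Kcnab1, Mdm1 (0.46), Galns (0.46) and Gm5069 (0.45) for Prkcz, and Adhfe1 (0.71), Hnrnpa3 (0.62) and Rsrc2 (0.60) for Amy1. Gdap1 and Htra4, like Kcnab1, had negative log2 fold changes at 28 against 18 months (-1.77 and -0.80).

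Other cell types and states moved over the same ages, and in bulk tissue fewer cells of a type cannot be told apart from less RNA per cell. At 28 against 18 months 19.1% of all genes were higher and 16.5% lower, the shares to set beside the counts below. Of the denervation response genes 7 of 12 tested were higher at 28 against 18 months (median 0.92). Their summed level ran from 161 to 318 TPM at 18 months and from 364 to 935 TPM at 28 months. That list was also higher at 28 against 24 months in 6 of 12 genes (median 0.54), where 7.83% of all genes were higher and 3.04% lower. Over that span Emb differed by 0.08, Kcnab1 by -0.77, Prkcz by 0.21 and Amy1 by 0.37. Macrophage markers were higher in 3 of 8 genes at 28 against 18 months (148 to 394 TPM at 18 months, 240 to 690 TPM at 28 months). Adipocyte markers were lower in 5 of 6 (150 to 530 TPM against 87.4 to 201 TPM) and fibroblast markers in 3 of 6 (637 to 986 TPM against 604 to 826 TPM). Among Schwann cell markers 1 of 7 was higher and 1 lower (68.4 to 171 TPM against 56.9 to 184 TPM), and 1 of 5 satellite cell markers was lower (17.9 to 26.6 TPM against 19.8 to 32.0 TPM). Endothelial markers and those of smooth muscle and pericytes did not pass in any of 6 and 6 genes, 1 of 6 slow fibre genes was higher, and 1 of 8 muscle fibre genes was higher and 1 lower. Lymphocyte markers were too low to test, with a summed level of at most 3.73 TPM. The part of any of these in the courses of the 4 genes was not tested.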

How the data were processed

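PolyA RNA from gastrocnemius muscle was sequenced from strand-marked libraries. The authors trimmed reads with cutadapt 1.9.1 and estimated transcript abundance with kallisto 0.43.1 in its strand-specific mode on Ensembl transcripts of GRCm38, gave a read that fitted several transcripts in equal parts to each, and summed transcripts to genes. The deposited counts are whole numbers per gene, not normalised. The deposited TPM values are scaled by transcript length and library. Because shared reads are divided, counts of overlapping or similar genes are uncertain.

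Ages came from the labels. Genes that reached 1 CPM in 8 mice or more (12586 of 23880) were fitted with edgeR 4.0.16 (R 4.3.3), TMM factors, 6 ages in 1 model over 50 mice, quasi-likelihood test, Benjamini-Hochberg adjustment over all genes tested and FDR 0.01. The standard error is the log2 fold change divided by the root of F. The labels give 1 library per mouse, and no 2 count columns were identical. Because the difference between 8 and 22 months chose the genes, no tested contrast compares those ages. The fit behind the contrasts, with its filter, scaling and spread, uses all 50 mice. So do the within-age relations and the check for outlying mice. The members and the gene lists were chosen with earlier results of these data known. Named genes were the members, the listed pathway genes past FDR 0.01 at 28 against 18 or 28 against 24 months, and the 3 genes most like each member, amylase copies left out. Other listed genes are named for their role, after their values were seen. All 4 members passed the filter. Relations within ages used log2(CPM + 1) (Python 3.11.15, two-sided permutation within ages). Implied length is count over TPM, divided by the median of the same ratio per base over 2040 genes with 1 coding transcript and at least 200 counts in every mouse. Positions are from GENCODE vM21 and RefSeq GRCm38.p6. Alternatives were DESeq2 1.42.0, limma 3.58.1 on log2(TPM + 1) or log2(TPM + 0.1), edgeR's likelihood ratio test, upper-quartile factors, no filter, only the 2 ages compared, the replicate number as a block, each mouse left out, and summed counts of neighbouring genes, of which those with Rnpc3 and Gm38048 and all those for the described contrasts were added after seeing the data. On simulated counts for 28 against 24 months (12586 genes, 200 changed), 64 of 100 genes changed by 1.5-fold and 90 of 100 changed by 2-fold were recovered, with 2 false calls. The simulation gave each gene the same spread at every age, so it cannot show how the test fares where spread differs between ages. In the data the calls of that contrast went from 1367 to 1 when only the 2 ages were fitted.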

Additional observations from a re-analysis of the deposited data

Results flagged for a closer look

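1 of the 24 groups of mice, counting each gene at each age, held a value far from the others by Dixon's test: Emb in 18 months-old replicate 5, at 6.12 CPM, was the highest of 8 mice. Chance alone gives about 1 such group in 20. Without that mouse Emb at 28 against 18 months was 0.73, the highest value with 1 mouse left out, and still passed FDR 0.01.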

How the results depend on the processing

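Under other settings 193 values of members in the tested contrasts kept direction and side of the threshold, 11 no longer passed, 3 newly passed and 3 turned sign. Amy1 at 28 against 24 months was 0.31 (FDR = 0.0140) with upper-quartile factors and 0.37 (FDR = 0.0317) with only the 2 ages fitted, and at 24 against 18 months 0.50 (FDR = 0.0122) without a filter and 0.49 (FDR = 0.0104) with Rnpc3 added. Kcnab1 at 28 against 24 months was -0.76 (FDR = 0.0138) without a filter, -0.72 (FDR = 0.0134) and -0.76 (FDR = 0.0145) with limma on log2(TPM + 1) and log2(TPM + 0.1), -0.77 (FDR = 0.0265) with only the 2 ages and -0.76 (FDR = 0.0102) with Gm38048 added, and at 28 against 18 months it passed at -0.70 with upper-quartile factors and at -0.66 with the likelihood ratio test and with DESeq2. Prkcz at 28 against 18 months was 0.51 (FDR = 0.0261) with only the 2 ages. Emb at 28 against 26 months turned to 0.022 and 0.028 with limma, and Prkcz at 28 against 8 months moved to 1.35 in log2(TPM + 0.1). Kcnab1 with Prkcz turned to r = 0.030 without the 8 and 22 months-old mice and 0.00508 without the 2 farthest mice, and Amy1 with the denervation list passed at 0.44. The causes were not tested.

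With the replicate number as a block, Prkcz was 0.47 (FDR = 0.0112) at 28 against 18 months and -0.032 (FDR = 0.935) at 26 against 24 months. The labels do not say that numbers pair mice, and of 121 same-number pairs 42 correlated above 0.1 (median 0.0515, other pairs -0.00502), with 9 of 50 mice closest to their own number.

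With 1 mouse left out, ranges were 0.43 to 0.53 (Amy1, 24 against 18 months), 0.34 to 0.44 (Amy1, 28 against 24), 0.64 to 0.77 (Emb, 26 against 18), 0.45 to 0.67 (Prkcz, 28 against 18), -0.90 to -0.69 (Kcnab1, 28 against 24) and -0.79 to -0.50 (Kcnab1, 28 against 18). Signs changed, none past the threshold, for Emb at 28 against 24 (-0.000782 to 0.20) and 28 against 26 (-0.11 to 0.024), Kcnab1 at 26 against 18 (-0.25 to 0.0084) and Prkcz at 26 against 24 months (-0.039 to 0.094).

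Counts of called genes moved by over 1.5 times at 28 against 24 months from 1367 to 837 and 814 with limma and to 1 with only the 2 ages. At 26 against 18 months 1268 became 836 with limma on log2(TPM + 0.1) and 738 with only the 2 ages, at 28 against 18 months 4480 became 2720 with only the 2 ages, and at 24 against 18 months 14 became 38 with the likelihood ratio test, 34 with DESeq2 and 25 with only the 2 ages. At 26 against 24 months 0 became 14 with DESeq2, 4 with the likelihood ratio test, 4 with only the 2 ages and 1 without a filter, and at 28 against 26 months 1 without a filter and 1 with limma on log2(TPM + 1). At 22 against 8 months, the contrast behind the choice, 5 became 14 with upper-quartile factors, 34 with the likelihood ratio test, 34 with DESeq2, 12 with limma on log2(TPM + 0.1) and 19 with only the 2 ages. At 18 against 8 months 9 became 4 with limma and 4 with only the 2 ages.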
